A study of Mus musculus with 12 samples.

Results

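Glycolysis turns glucose into pyruvate and, when pyruvate is kept from the mitochondria, into lactate. The hypoxia-inducible factors Hif1a and Epas1 (HIF-2 alpha) are transcription factor subunits that prolyl hydroxylases mark for destruction while oxygen is plentiful, and when oxygen falls they raise glucose transporters, most glycolytic enzymes, lactate export and a set of other genes such as Bnip3 and P4ha2. In bone, osteoblasts are known to rely strongly on glucose and glycolysis, and marrow is a tissue of low oxygen. The 42 genes of this pathway described here were chosen by symbol: glucose transporters, the enzymes from hexokinase to pyruvate kinase, the PFKFB regulators, the lactate and pyruvate dehydrogenase kinase genes, the HIF subunits with 2 of their prolyl hydroxylases, and other hypoxia response genes. The list was drawn up with earlier results of these data known. Of the 42, 38 were measured by a probe set annotated to 1 gene, among 19937 genes measured in all. A gene with several probe sets is represented by the brightest of them on average. Gapdh had only probe sets shared with other genes, and Gpi1, Pfkfb1 and Eno1 were not analysed here. A gene was tested when 3 or more arrays showed it above the middle (median) of their own probe sets, which 33 of the 38 did, among 12430 genes tested. Pfkfb4, Aldoc, Eno2, Egln3 and Car9 did not.

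The values come from 12 expression arrays of cells sorted out of long bones, taken from female mice of the NOD SCID strain, which lacks functional lymphocytes. Tumor-bearing mice had been given 200000 MDA-MB-231 scp1833 cells, a derivative of a human breast cancer line, through the heart about 2 weeks earlier, and control mice were tumor-free, with no other agent named for them. Osteoblasts were sorted as cells carrying CD51 and lacking GFP, TR119, CD45, SCA1 and CD31. Endothelial cells were sorted as cells carrying SCA1 and CD31 and lacking GFP, TR119 and CD45. Each of the 4 groups, osteoblasts or endothelial cells from tumor-free or tumor-bearing mice, holds 3 arrays that the labels call biological replicates. The sources used here do not say how many mice stand behind an array or whether arrays share mice, and the p-values describe only how much these samples vary, which may be partly technical. All levels below are log2 expression, on which a difference of 1 is a 2-fold change. Levels are compared within a gene and never between genes, since each probe set has its own response.

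The arrays of the 2 sorted populations differed in cell type markers, with 1 group more variable than the rest. All 10 endothelial markers tested were higher and all 7 osteoblast markers tested lower in endothelial cells, both without and with tumor (adjusted p below 0.05 by limma). Pecam1, 1 of the endothelial markers, encodes CD31, which the sort itself used. Of 10 chondrocyte markers tested, 8 were also lower in endothelial cells without tumor and 10 with tumor. The comparison therefore cannot show that the cells sorted as osteoblasts were osteoblasts alone. Over all 19937 genes measured, with 1 probe set each, the correlation between replicate arrays was 0.875 to 0.932 among tumor-free osteoblasts. Within each other group it was 0.957 to 0.986. Over the 33 members tested, the median SD of 3 replicates was 0.482 in tumor-free osteoblasts and 0.229 to 0.247 elsewhere. The leukocyte markers averaged 5.43, 8.49 and 7.88 on tumor-free osteoblast arrays 1, 2 and 3, against 5.05 to 6.88 on the tumor-bearing osteoblast arrays and 5.17 to 5.69 on the endothelial ones. Ptprc, which encodes the gated-out CD45, reached 8.46 on tumor-free osteoblast array 2. The chondrocyte markers averaged 9.94, 8.75 and 6.70 on the tumor-free osteoblast arrays and 9.90 to 10.61 on the tumor-bearing ones. On the same arrays the osteoblast markers averaged 8.82, 10.26 and 9.87 without and 9.54 to 9.82 with tumor. Tumor-free array 1 was thus lowest of its group for these and highest for the chondrocyte markers. Precision is limited throughout by having 3 arrays in each group.

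In osteoblasts of tumor-bearing mice 7 members were higher than in tumor-free mice: the glucose transporter Slc2a1, the enzymes Hk2, Pfkp and Tpi1, the regulator Pfkfb3, lactate dehydrogenase Ldha, and the collagen prolyl hydroxylase subunit P4ha2. The 7 of 33 (21.2%) stand beside 4.01% of all 12430 genes tested that were called higher. No member was called lower (0 of 33), where 0.571% of all genes were, and 4 of the 33 had differences below 0. The test was limma with Benjamini-Hochberg adjustment over all genes tested, two-sided, called at an adjusted p below 0.05. At an unadjusted p below 0.05 the count was 20 of 33 members, beside 24.4% of all genes. For 18 of 33 members every tumor-bearing osteoblast array lay above every tumor-free one, which held for 12.3% of all genes. The reverse held for 0 of 33 members and for 12.3% of all genes. The median difference over the members tested was 0.64, against -0.0014 over all genes tested. Because the members were listed with earlier results of these data known, none of these shares is independent of that choice.

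This count rested on the error shared by the 4 groups and moved with single arrays. With the 6 osteoblast arrays fitted alone, 0 members and 0 genes of all passed. Leaving out tumor-free osteoblast replicate 1 gave 12 members, leaving out replicate 3 gave 4, and leaving out tumor-bearing osteoblast replicates 2 or 3 gave 2 or 4. Leaving out replicate 1 of both tumor-free groups, a choice made after seeing the data, also gave 12. Quantile normalization of the table gave 5 members and centring each array on its median gave 9. Among all genes called, 499 were higher and 71 lower in the table as deposited, against 368 and 184 after quantile normalization.

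**Figure D1:**
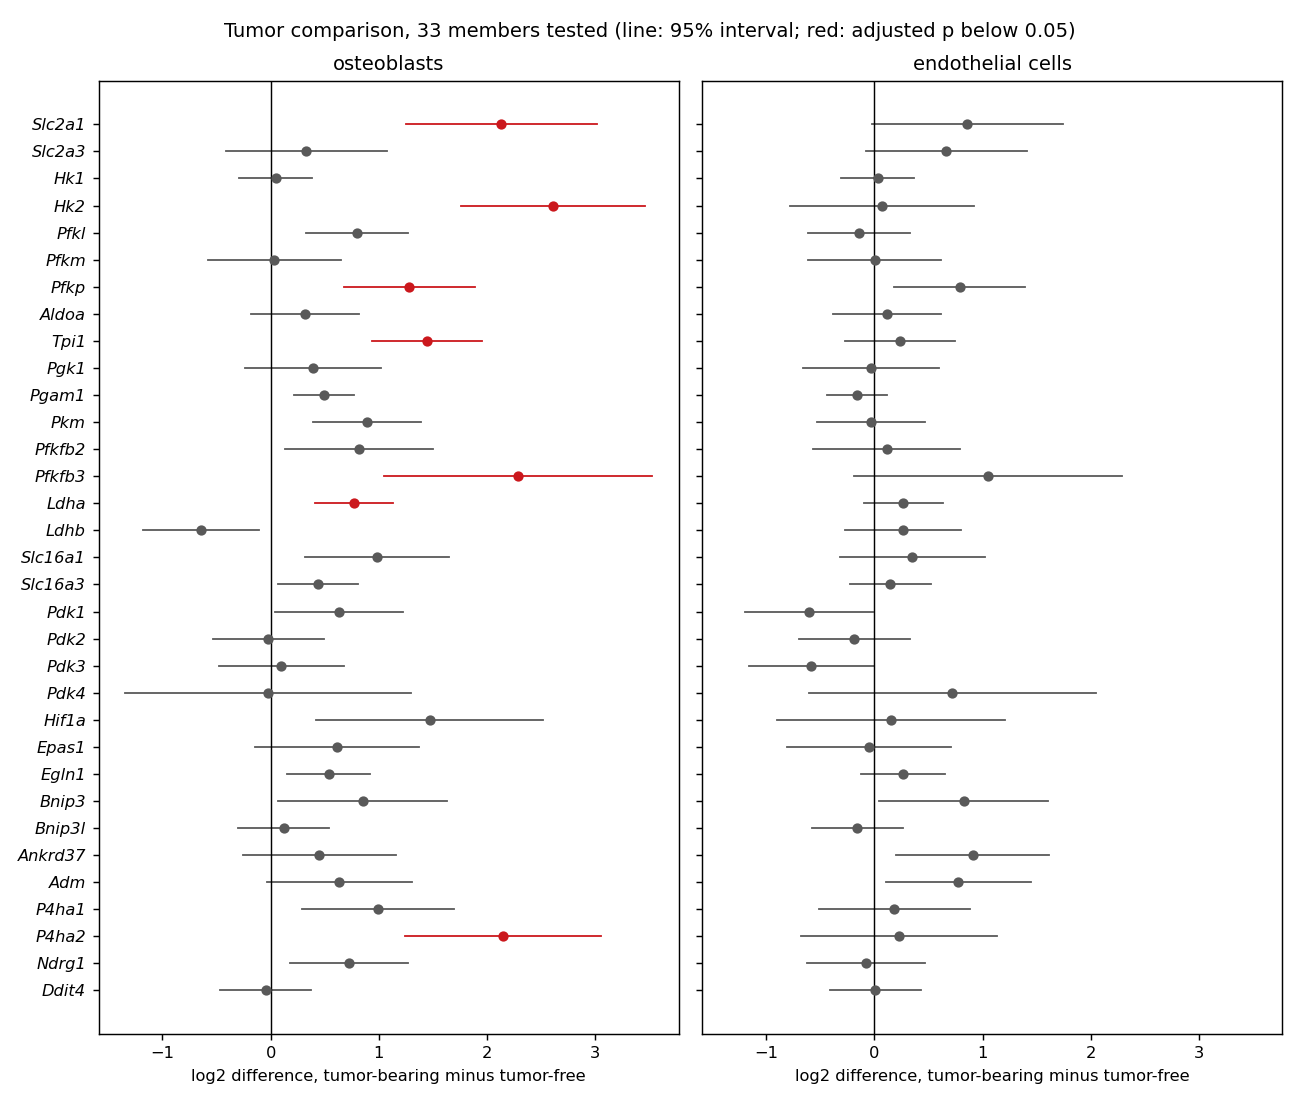
Difference between tumor-bearing and tumor-free mice (horizontal axis, log2) for the 33 members tested, in osteoblasts on the left and endothelial cells on the right; points are limma estimates, lines their 95% intervals, and red marks an adjusted p below 0.05. In osteoblasts 7 members are red, all to the right of 0, with Hk2 farthest out at 2.61, and in endothelial cells none is red.

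Other gene sets moved along with the members in osteoblasts. Immediate early genes, which rise within minutes of stimulation or tissue dissociation, averaged 9.15, 8.55 and 8.01 on tumor-free osteoblast arrays 1, 2 and 3 and 9.70, 9.84 and 9.71 on the tumor-bearing arrays, and 4 of 14 were called higher (Egr2, Nr4a1, Btg2 and Fosb, all 14 with a difference above 0), beside the 4.01% of all genes. Egr2 and Nr4a1 passed in all 12 fits with an array left out, Fosb in 4 and Btg2 in 2 (adjusted p up to 0.143 and 0.131). The 7 members called averaged 7.59, 7.10 and 6.50 on the same tumor-free arrays and 8.79, 9.06 and 8.77 on the tumor-bearing ones. Tumor-free array 1 was thus the highest and array 3 the lowest of its group for both sets, and for the chondrocyte markers too. Chondrocyte markers were above 0 in difference for 10 of 10 genes, of which Col2a1 and Col9a2 were called higher, in 10 and 2 of the 12 fits with an array left out (adjusted p up to 0.0898 and 0.133). Leukocyte and macrophage markers had 0 of 6 and 0 of 10 genes called, with median differences of -1.25 and -1.37. With the mean of the immediate early list as a covariate 0 of the 33 members passed, and 0 genes of all where 570 had passed without it. That mean was higher on every tumor-bearing than on any tumor-free osteoblast array, so this fit cannot separate it from the tumor comparison. The members' median difference was then 0.50, against 0.64 without the covariate. Tpi1 kept a difference of 1.73 ± 0.38 (SE) and Hk2 of 1.94 ± 0.60, while Slc2a1 had 0.69 ± 0.37 and Pfkfb3 0.20 ± 0.47. With the mean of the chondrocyte list, tried after seeing the data, Ndrg1 alone of the members passed, among 154 genes of all, and the members' median was 0.59. In that fit the differences of the 7 members called before ran from 0.65 for Ldha to 2.18 ± 0.50 for Hk2 (adjusted p = 0.0621), with Tpi1 at 1.47 ± 0.32 (adjusted p = 0.0577). With the mean of the blood cell lists as a covariate, 6 of the 7 members called still passed, the exception being Pfkfb3 (adjusted p = 0.0577). In a bulk array, a change in which cells were sorted and a change in RNA per cell cannot be told apart, and the part of either in the differences was not tested.

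**Figure D2:**
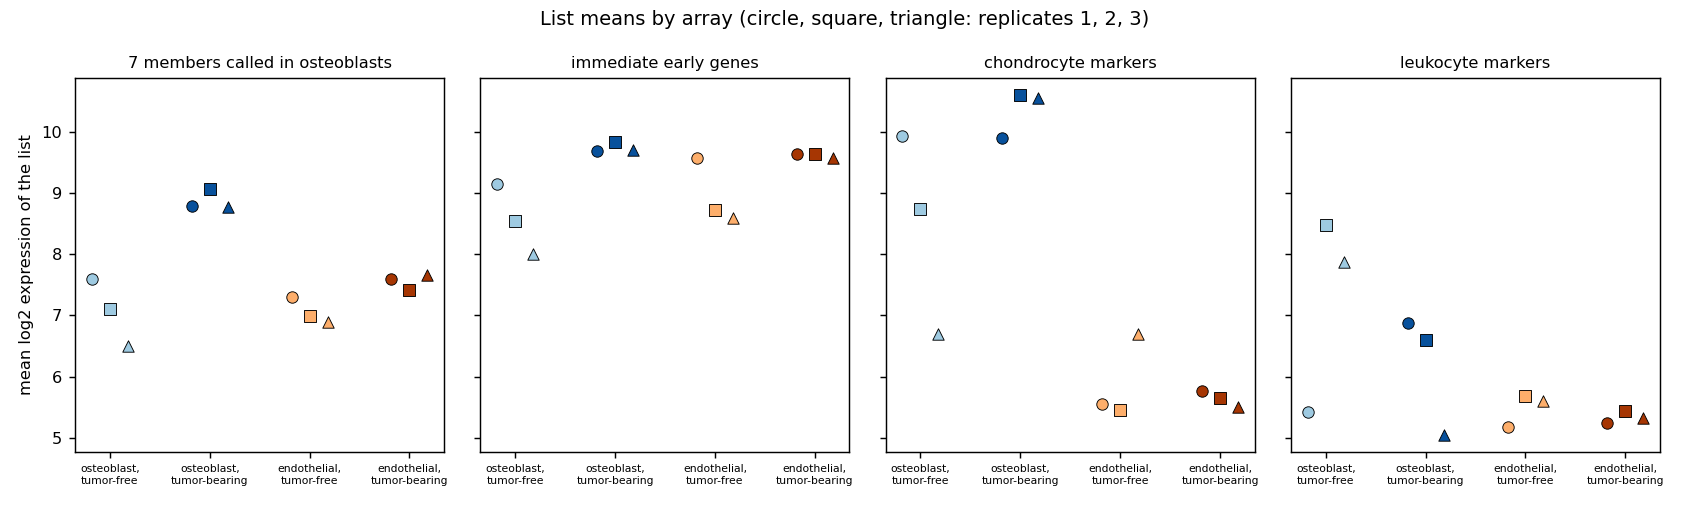
Mean log2 expression on each of the 12 arrays for the 7 members called in osteoblasts, the immediate early genes, the chondrocyte markers and the leukocyte markers; circles, squares and triangles are replicates 1, 2 and 3. Tumor-free osteoblasts spread most, from 6.70 to 9.94 for the chondrocyte markers, and their array 3 is the lowest of that group in the first 3 panels.

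The hypoxia response element, to which the HIF complex binds, has the core ACGTG or GCGTG, and the members' promoters were searched for it because the members moved together. The windows are the 250 bases before each gene start in RefSeq (GRCm38.p6), both strands were read, and a CACGTG, which is its own reverse complement, counts as 2 overlapping matches. Windows were listed for 38 of the 42 members, not the same 38 as those measured. At least 1 match lay in a window of 35 of the 38 (92.1%), against 41.5% of all 27025 genes with windows. A gene can have several windows, and per window the share was 45 of 57 (78.9%), against 38.6% of all 32851. The members were listed as glycolysis and hypoxia response genes, so these shares are not independent of that choice. The members' windows also had more G and C (median 60.4%) than all windows (52.4%). Of the 7 members called in osteoblasts, 6 held a match and Tpi1 held none. Shown are promoters of 4 of those 6, and that of Tpi1 for contrast, read 5′ to 3′ on the gene's own strand, with matches (on either strand) in capitals. The Slc2a1 window, on the plus strand at chr4:119108495-119108744, holds 2 matches and the Hk2 window, on the minus strand at chr6:82774455-82774704, holds 2. The Ldha window of the first of 2 listed starts, on the plus strand at chr7:46845554-46845803, holds 5, including a pair of CACGTG, and the P4ha2 window, on the plus strand at chr11:54100674-54100923, holds 3. The Tpi1 window lies on the minus strand at chr6:124814159-124814408.
Slc2a1: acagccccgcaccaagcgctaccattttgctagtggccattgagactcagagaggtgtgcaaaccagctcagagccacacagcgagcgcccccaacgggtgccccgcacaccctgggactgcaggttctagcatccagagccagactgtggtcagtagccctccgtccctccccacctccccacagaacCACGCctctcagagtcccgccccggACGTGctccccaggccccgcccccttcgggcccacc
Hk2: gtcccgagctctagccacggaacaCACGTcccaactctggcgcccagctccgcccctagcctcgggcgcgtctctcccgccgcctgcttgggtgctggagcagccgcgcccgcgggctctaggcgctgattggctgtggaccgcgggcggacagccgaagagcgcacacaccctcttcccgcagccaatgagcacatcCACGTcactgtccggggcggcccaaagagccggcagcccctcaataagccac
Ldha: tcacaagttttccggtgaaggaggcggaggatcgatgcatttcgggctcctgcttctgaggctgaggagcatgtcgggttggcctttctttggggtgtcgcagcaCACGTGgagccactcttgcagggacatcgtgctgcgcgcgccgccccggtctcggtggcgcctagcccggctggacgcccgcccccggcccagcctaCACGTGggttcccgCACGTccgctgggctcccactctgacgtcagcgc
P4ha2: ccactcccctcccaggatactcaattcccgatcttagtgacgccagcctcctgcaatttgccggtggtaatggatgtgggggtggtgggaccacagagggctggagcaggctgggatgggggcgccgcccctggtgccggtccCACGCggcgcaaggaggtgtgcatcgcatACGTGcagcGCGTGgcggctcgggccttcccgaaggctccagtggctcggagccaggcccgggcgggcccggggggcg
Tpi1: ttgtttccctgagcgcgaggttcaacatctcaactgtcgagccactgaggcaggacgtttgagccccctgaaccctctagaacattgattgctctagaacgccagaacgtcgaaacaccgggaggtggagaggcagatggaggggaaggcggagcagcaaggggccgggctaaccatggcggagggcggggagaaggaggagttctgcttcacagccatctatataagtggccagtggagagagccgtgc
A match describes letters in this window and is no evidence of binding. No window was listed for Slc2a3, Bnip3l, Ndrg1 and Epas1.

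Glucose uptake was represented by Slc2a1 (GLUT1), the transporter of basal uptake in most cells, and Slc2a3 (GLUT3), a high-affinity transporter. Slc2a1 stood at 7.69, 7.50 and 6.10 on the tumor-free osteoblast arrays and at 9.003, 9.68 and 9.01 on the tumor-bearing ones. The groups did not overlap, and the lowest tumor-bearing array lay above the highest tumor-free one by more than the range within the tumor-bearing group. The means were 7.10 ± 0.87 and 9.23 ± 0.39 (SD, n = 3 each), which is 4.39-fold (2.13 ± 0.40 SE on the log2 scale, adjusted p = 0.0173). Without tumor-bearing replicate 2 the difference was 1.91 and did not pass (adjusted p = 0.0817). Slc2a3 stood at 5.48, 5.61 and 6.61 in tumor-free and 6.65, 5.74 and 6.28 in tumor-bearing osteoblasts. Its groups overlapped, and the difference of 0.33 had a 95% interval from -0.41 to 1.07 (adjusted p = 0.571).

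Hexokinases trap glucose in the cell by phosphorylating it, and Hk2 is the isoform that HIF and insulin induce. Hk2 read 7.01, 5.68 and 6.02 on the tumor-free osteoblast arrays and 8.84, 9.41 and 8.29 on the tumor-bearing ones. The gap between the groups was wide, with the lowest tumor-bearing array above the highest tumor-free one. At 6.10-fold (2.61 ± 0.39 SE, means 6.24 ± 0.69 and 8.85 ± 0.56, SD, n = 3 each) it was the largest rise of any member, with an adjusted p of 0.00757. Hk2 passed with each of the 12 arrays left out in turn (5.02-fold to 7.97-fold). Hk1, the constitutive isoform, read 11.22, 10.76 and 10.90 in tumor-free and 11.10, 10.99 and 10.93 in tumor-bearing osteoblasts, a difference of 0.05 (95% interval -0.29 to 0.38). That probe set is annotated with 1 accession, which is not a RefSeq transcript. The other Hk1 probe set, annotated with 2 RefSeq transcripts and looked at after seeing the data, read 6.86, 6.83 and 6.15 in tumor-free and 7.28, 7.76 and 8.09 in tumor-bearing osteoblasts. With it Hk1 was 2.14-fold higher (1.10 ± 0.23 SE, adjusted p = 0.0289), so the 2 probe sets disagree on the call.

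The committed step of glycolysis is made by phosphofructokinase, with liver (Pfkl), muscle (Pfkm) and platelet (Pfkp) isoforms, and its activator fructose-2,6-bisphosphate is made by the PFKFB enzymes. Pfkp was at 6.23, 6.07 and 5.32 in tumor-free and at 7.51, 7.12 and 6.84 in tumor-bearing osteoblasts. These groups were apart, by a smaller margin than those of Hk2. Pfkp rose 2.44-fold (1.28 ± 0.28 SE, adjusted p = 0.03). It fell short of the threshold without tumor-free replicate 3 (adjusted p = 0.0668), tumor-bearing replicate 1 (0.0903) or 2 (0.098), or endothelial tumor-bearing replicate 1 (0.0519). Pfkl had a difference of 0.80 (95% interval 0.32 to 1.27) with groups apart but an adjusted p of 0.0609, and passed when replicate 2 of tumor-free osteoblasts (0.0233) or replicate 3 of tumor-bearing endothelial cells (0.0456) was left out. Pfkm, the muscle isoform, differed by 0.03 (interval -0.58 to 0.65).

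Pfkfb3 is the PFKFB isoform with the strongest kinase activity and a known HIF target. Its arrays read 8.83, 7.34 and 5.96 in tumor-free osteoblasts and 9.67, 9.74 and 9.59 in tumor-bearing ones. The tumor-free arrays were spread widely, and the tumor-bearing arrays lay close together above all of them. The means, 7.38 ± 1.44 and 9.67 ± 0.08 (SD, n = 3 each), differed 4.89-fold (2.29 ± 0.56 SE, adjusted p = 0.0453). The call was lost when any 1 of 11 arrays was left out (adjusted p up to 0.14), and held without tumor-free replicate 1, where the difference was 3.02 (8.11-fold, adjusted p = 0.00129). Without tumor-free replicate 3 it was 1.58 (2.99-fold, adjusted p = 0.078). Pfkfb2, the heart isoform, differed by 0.82 (interval 0.13 to 1.50, adjusted p = 0.144). Pfkfb4 was dim on every array, at 4.89, 5.19 and 5.10 in tumor-free osteoblasts, 4.44, 5.24 and 4.88 in tumor-bearing ones, 4.59, 4.28 and 4.54 in tumor-free and 4.75, 4.56 and 4.73 in tumor-bearing endothelial cells, and was not tested.

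Below phosphofructokinase, aldolase splits the sugar, triosephosphate isomerase (Tpi1) interconverts the products, and Pgk1, Pgam1, enolase and Pkm carry them to pyruvate with the yield of ATP. Tpi1 read 7.53, 8.55 and 7.88 in tumor-free and 9.42, 9.45 and 9.42 in tumor-bearing osteoblasts. The 3 tumor-bearing arrays almost coincided, all above the tumor-free ones. The rise was 2.72-fold (1.44 ± 0.23 SE, adjusted p = 0.00989; means 7.99 ± 0.52 and 9.43 ± 0.02, SD, n = 3 each) and passed with each array left out. Pgk1, the first ATP-yielding enzyme, read 10.41, 9.63 and 9.04 in tumor-free and 9.90, 10.15 and 10.22 in tumor-bearing osteoblasts. Its highest array was a tumor-free one, and the difference of 0.39 (interval -0.23 to 1.02) had an adjusted p of 0.409. Without that array Pgk1 differed by 0.75 and passed (adjusted p = 0.0443). Pkm, pyruvate kinase, differed by 0.90 (interval 0.40 to 1.40, groups apart, adjusted p = 0.0506) and Pgam1, phosphoglycerate mutase, by 0.50 (interval 0.22 to 0.77, groups apart, adjusted p = 0.0525). Both passed without tumor-free osteoblast replicate 1 (adjusted p = 0.0102 for Pkm and 0.0407 for Pgam1), and Pkm also without replicate 2 (0.0486). The other Pkm probe set differed by 0.29. Aldoa differed by 0.32 (interval -0.18 to 0.82), and Aldoc (4.57 to 5.99 over the 12 arrays) and Eno2 (4.04 to 4.99) were too dim to test. Glycolytic enzymes have processed pseudogenes in the mouse genome, and signal from such copies cannot be told apart from that of the gene.

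**Figure D3:**
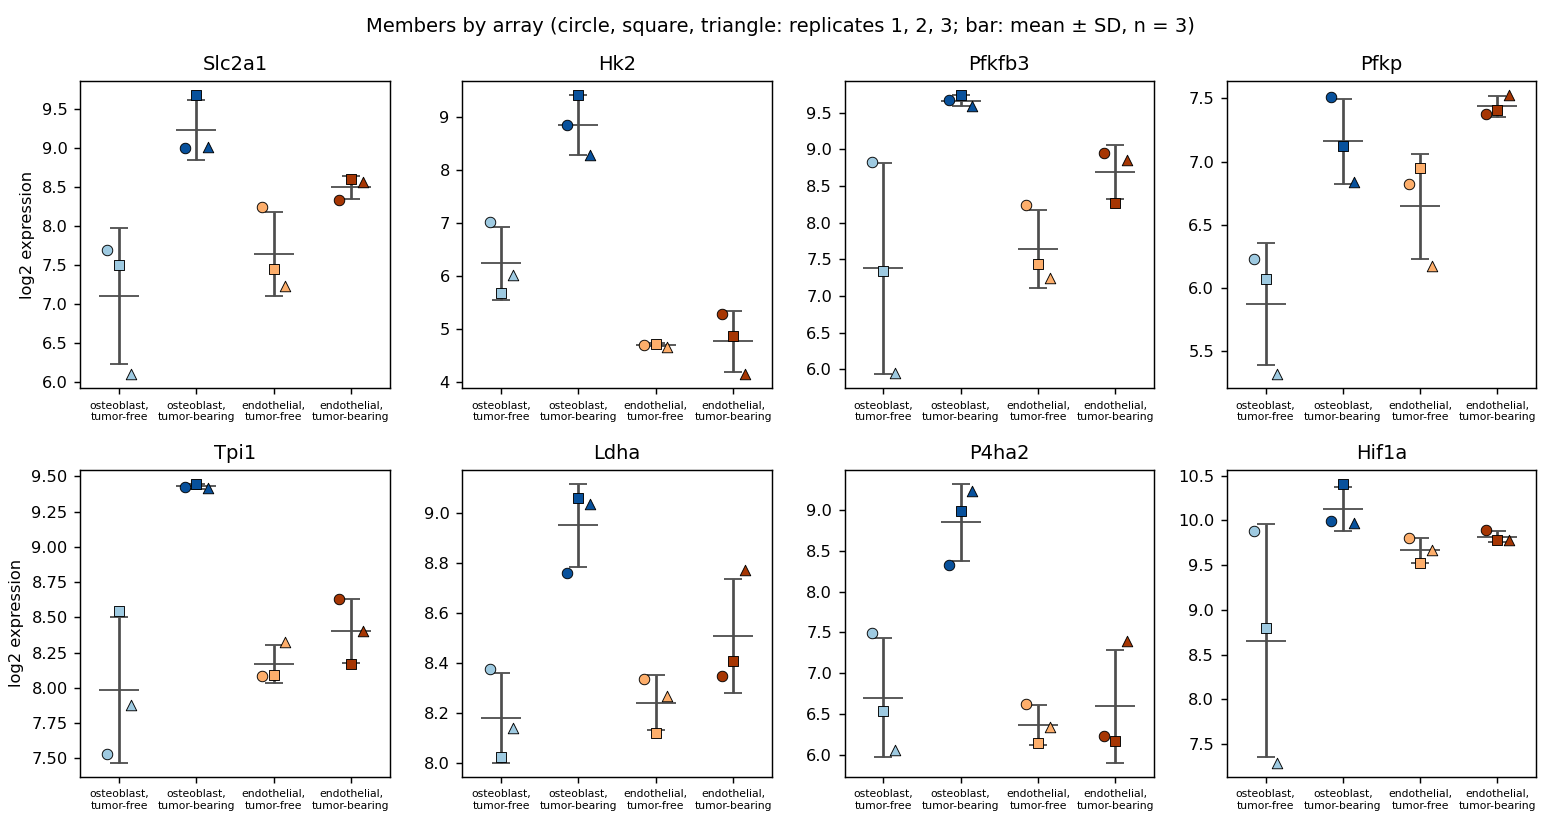
Log2 expression of the 7 members called in osteoblasts and of Hif1a on each array, by group; circles, squares and triangles are replicates 1, 2 and 3, and bars give the mean ± SD (n = 3). Tumor-bearing osteoblasts lie above tumor-free ones in every panel, and the tumor-free arrays of Pfkfb3 and Hif1a spread most, from 5.96 to 8.83 and from 7.29 to 9.88.

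Lactate dehydrogenase turns pyruvate into lactate (Ldha) or favours the way back (Ldhb), and the carriers Slc16a1 (MCT1) and Slc16a3 (MCT4, the HIF-induced exporter) move lactate across the membrane. Ldha was at 8.38, 8.02 and 8.14 on the tumor-free and at 8.76, 9.06 and 9.04 on the tumor-bearing osteoblast arrays. The groups were apart and both were tight. The rise was 1.71-fold, the smallest among the 7 members called (0.77 ± 0.16 SE, adjusted p = 0.0295). It did not pass without tumor-free replicate 3 (adjusted p = 0.0666), tumor-bearing replicate 2 (0.116) or 3 (0.0735). Slc16a3 read 6.42, 6.49 and 6.35 in tumor-free and 6.74, 6.91 and 6.92 in tumor-bearing osteoblasts. Its groups were apart, yet the difference of 0.44 (interval 0.06 to 0.81) had an adjusted p of 0.15. Slc16a1 differed by 0.98 (interval 0.32 to 1.65, groups apart, adjusted p = 0.0866). Ldhb had the most negative difference of the 33 members, -0.64 (interval -1.18 to -0.10, adjusted p = 0.144), and its other probe set gave -1.05 (adjusted p = 0.0581).

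Pyruvate dehydrogenase kinases (Pdk1 to Pdk4) switch off pyruvate dehydrogenase and so keep pyruvate out of the mitochondria. Pdk1, the HIF-induced isoform, stood at 5.56, 5.02 and 5.40 in tumor-free and at 5.36, 6.38 and 6.15 in tumor-bearing osteoblasts. One tumor-bearing array lay among the tumor-free ones, and the difference of 0.64 (interval 0.04 to 1.23) had an adjusted p of 0.178. Pdk4, the isoform of fasting and glucocorticoids, read 7.09, 8.41 and 8.10 against 8.55, 7.31 and 7.67. The difference of -0.02 had a wide interval, from -1.35 to 1.30. Pdk2 and Pdk3 differed by -0.02 (interval -0.53 to 0.49) and 0.10 (-0.48 to 0.68). None of the 4 kinases was called in this comparison.

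The HIF subunits and their prolyl hydroxylases were not called either. Hif1a read 9.88, 8.80 and 7.29 in tumor-free and 10.00, 10.41 and 9.97 in tumor-bearing osteoblasts. The groups did not overlap, but tumor-free array 1 came close to the tumor-bearing arrays. The difference of 1.47 (interval 0.42 to 2.52) had an adjusted p of 0.1, and without tumor-free replicate 1 it was 2.08 and passed (adjusted p = 0.00415). Since HIF-1 alpha is set mainly by protein breakdown, its mRNA level is no measure of its activity. Epas1 read 8.19, 9.15 and 8.75 against 10.11, 9.32 and 8.51, with overlap, a difference of 0.61 and an interval from -0.15 to 1.37. Egln1 (PHD2), the main oxygen-sensing hydroxylase, read 6.90, 6.82 and 7.13 against 7.55, 7.56 and 7.35. These groups were apart, and the difference of 0.54 (interval 0.15 to 0.92) had an adjusted p of 0.1. Egln3 (PHD3), an inducible hydroxylase, was dim, at 4.71, 4.49 and 4.78 against 4.72, 4.48 and 5.02, and was not tested.

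Among the other hypoxia response genes P4ha2 rose. P4ha2 encodes a catalytic subunit of the prolyl hydroxylase that stabilizes collagen, a major product of osteoblasts. It was at 7.50, 6.53 and 6.07 on the tumor-free and at 8.32, 8.99 and 9.24 on the tumor-bearing osteoblast arrays. The groups were apart, and the means of 6.70 ± 0.73 and 8.85 ± 0.47 (SD, n = 3 each) differed 4.44-fold (2.15 ± 0.41 SE, adjusted p = 0.0191). Without tumor-bearing replicate 2 or 3 the adjusted p was 0.0814 or 0.0551. P4ha1, the other main subunit, differed by 0.99 (interval 0.29 to 1.69, groups apart, adjusted p = 0.0954).

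Bnip3 encodes a mitochondrial protein that starts mitophagy and is a standard HIF target. Its arrays read 8.88, 8.13 and 7.36 in tumor-free and 8.79, 9.36 and 8.77 in tumor-bearing osteoblasts. Tumor-free array 1 lay among the tumor-bearing ones, and the difference of 0.85 (interval 0.07 to 1.63) had an adjusted p of 0.174. Without that array the difference was 1.23 and passed (adjusted p = 0.0285). The other Bnip3 probe set, tried after seeing the data, read 7.38, 6.05 and 5.55 in tumor-free and 8.28, 9.27 and 8.96 in tumor-bearing osteoblasts, a 5.69-fold rise (2.51 ± 0.57 SE, adjusted p = 0.0363). Adm, the vasodilator peptide adrenomedullin, read 5.67, 5.04 and 4.96 against 5.71, 6.16 and 5.71, just apart, with a difference of 0.64 (interval -0.03 to 1.31, adjusted p = 0.224). Ndrg1, a stress-induced gene, differed by 0.73 (interval 0.18 to 1.27, adjusted p = 0.112), Ankrd37 by 0.45 (-0.26 to 1.16), Bnip3l by 0.12 (-0.30 to 0.54) and Ddit4, an inhibitor of mTORC1, by -0.05 (-0.47 to 0.38). Car9, carbonic anhydrase 9, a marker of hypoxia in many tumors, was dim on all 12 arrays: 4.21, 4.52 and 4.96 in tumor-free and 4.22, 4.32 and 4.53 in tumor-bearing osteoblasts, and 4.13, 4.52 and 4.34 in tumor-free and 4.82, 4.45 and 4.41 in tumor-bearing endothelial cells. It lay below the array median on each.

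**Figure D4:**
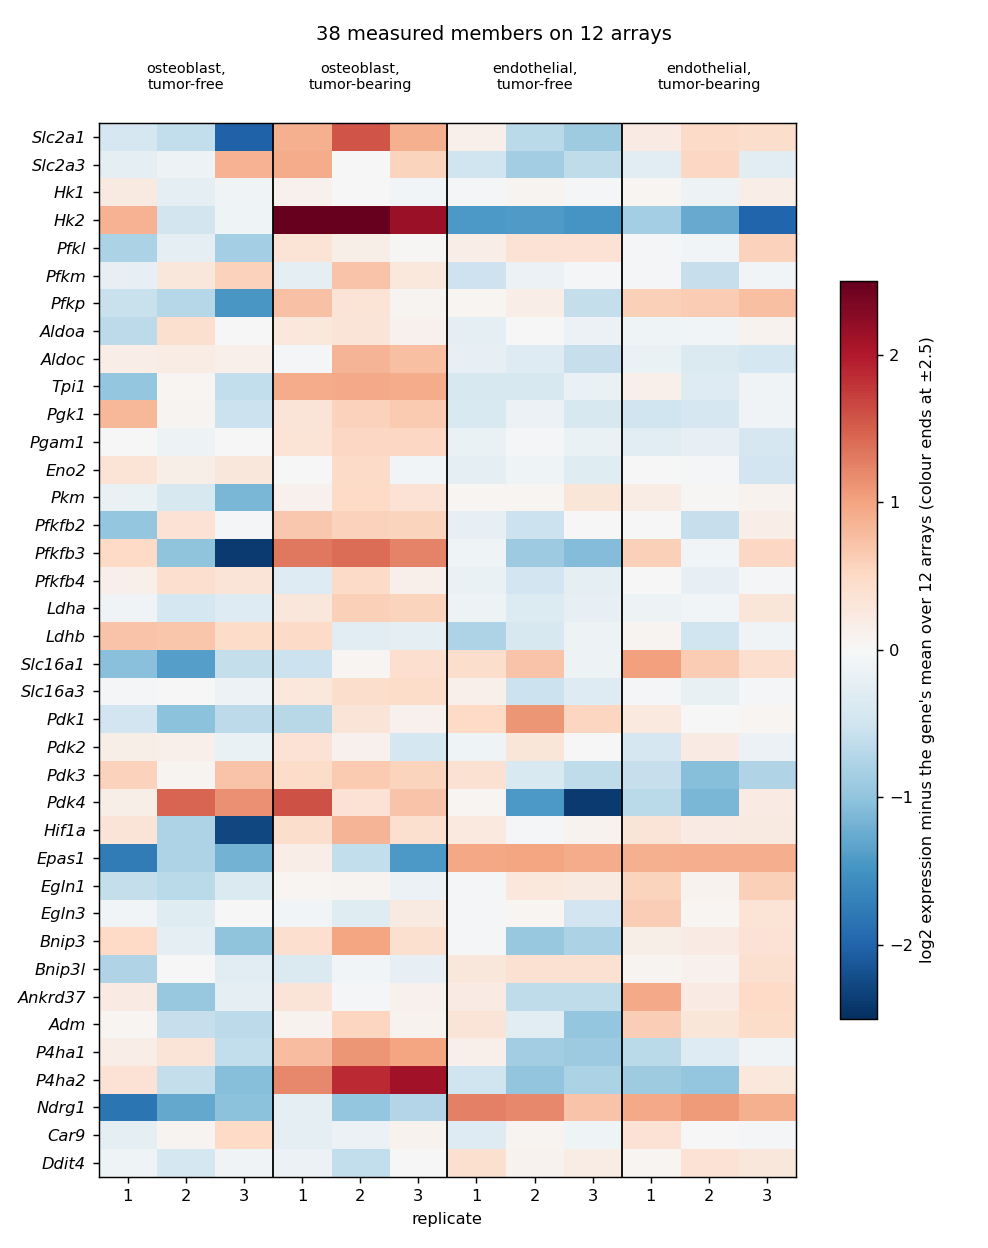
Log2 expression of the 38 measured members minus each gene's mean over the 12 arrays (colour, ending at ±2.5), with genes in rows ordered by role and arrays in columns by group and replicate. Hk2 is darkest red in tumor-bearing osteoblasts, where it reads 8.29 to 9.41, and Epas1 and Ndrg1 are red on all 6 endothelial arrays.

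Related pathways were read as lists in the osteoblast comparison, beside the 4.01% of all genes called higher there. Of 30 other hypoxia response genes tested, 3 were higher and 0 lower, with a median of 0.41: Rora, a nuclear receptor, 2.72-fold (adjusted p = 0.00673), Wsb1, a ubiquitin ligase subunit, 2.77-fold (0.0171), and Kdm4c, a histone demethylase, 1.94-fold (0.0441). Rora passed with each array left out, Wsb1 did not without tumor-bearing replicates 1 or 2 (adjusted p up to 0.0773), and Kdm4c passed in 3 of 12 such fits (adjusted p up to 0.145). Vegfa, the best-known HIF target, was not called (8.12 ± 0.08 against 7.93 ± 0.26, SD, n = 3 each, adjusted p = 0.476). Of 11 other glycolysis isoforms and entry enzymes, 1 was higher (Pgm1, phosphoglucomutase, 1.98-fold, adjusted p = 0.0226), and it did not pass without tumor-free replicate 3 or tumor-bearing replicates 2 or 3 (up to 0.0991). Of 24 genes of pyruvate dehydrogenase and the citric acid cycle, 1 was higher (Ogdh, 1.99-fold, adjusted p = 0.0433), which passed in 3 of 12 fits with an array left out (up to 0.151). The pentose phosphate pathway (6 genes tested), glycogen metabolism (8) and the HIF regulators (12) had 0 called. All of these calls were lost with the osteoblast arrays fitted alone.

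In endothelial cells 0 of 33 members were called between tumor-bearing and tumor-free mice, where 3 of all 12430 genes (0.0241%) were called by limma. At an unadjusted p below 0.05 the count was 6 of 33 members, beside 6.93% of all genes. The median difference was 0.15, against -0.02 over all genes. In 7 members every tumor-bearing array lay above every tumor-free one (7.84% of all genes): Ankrd37, Bnip3, Ldha, Pfkfb3, Pfkp, Slc2a1 and Slc2a3. In 3 members, Epas1, Pdk1 and Pgam1, every tumor-bearing array lay below (10.9% of all genes). With array quality weights 3 members passed, all higher: Ankrd37 (1.18, adjusted p = 0.027), Pfkfb3 (1.27, 0.0434) and Pfkp (0.86, 0.0438). The immediate early genes averaged 9.58, 8.72 and 8.60 on the tumor-free endothelial arrays and 9.57 to 9.64 on the tumor-bearing ones. With their mean as a covariate, 0 members and 0 genes of all were called. Without it the counts were already 0 and 3, so they had almost no room to fall. The members' median difference was then 0.06, against 0.15 without that covariate. The cause of these differences was not tested.

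Slc2a1 in endothelial cells, where it is the glucose carrier of barrier vessels, read 8.25, 7.44 and 7.22 without and 8.33, 8.60 and 8.56 with tumor. The groups were just apart, with tumor-free array 1 close to the tumor-bearing arrays, and the difference was 0.86 (interval -0.03 to 1.74). Slc2a3 read 5.24, 4.85 and 5.10 against 5.46, 6.25 and 5.47, also apart, with a difference of 0.66 (-0.08 to 1.41). Pfkfb3, which drives endothelial glycolysis in sprouting vessels, read 8.24, 7.43 and 7.25 against 8.95, 8.27 and 8.86. Its groups were just apart, with a difference of 1.05 and an interval from -0.19 to 2.29. Pfkp read 6.82, 6.95 and 6.17 against 7.37, 7.41 and 7.53, apart, with a difference of 0.79 (0.18 to 1.40, adjusted p = 0.573). Hk2 was dim in these cells, at 4.70, 4.72 and 4.66 against 5.28, 4.87 and 4.15, and the difference of 0.07 ran from -0.78 to 0.92. Hk1 read 10.97, 11.07 and 10.96 against 11.05, 10.86 and 11.17, a difference of 0.03 (-0.31 to 0.37).

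Further down the pathway, Pgk1 read 9.20, 9.43 and 9.16 without and 9.06, 9.16 and 9.48 with tumor, a difference of -0.03 (-0.66 to 0.60). Tpi1 read 8.09, 8.09 and 8.32 against 8.63, 8.17 and 8.40, overlapping, with a difference of 0.24 (-0.27 to 0.74). Ldha was at 8.34, 8.12 and 8.27 against 8.35, 8.41 and 8.77. Its groups touched without overlapping, and the difference was 0.27 (-0.09 to 0.63). Slc16a3 read 6.61, 5.93 and 6.15 against 6.42, 6.29 and 6.42, a difference of 0.15 (-0.23 to 0.52). Pdk1 was lower on all 3 tumor-bearing arrays, at 6.55, 7.15 and 6.58 against 6.29, 6.07 and 6.10, with a difference of -0.61 (-1.20 to -0.02, adjusted p = 0.7). Pdk4 varied widely in tumor-free endothelial cells, at 6.995, 5.52 and 4.56 against 6.28, 5.80 and 7.16 (difference 0.72, interval -0.60 to 2.05).

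Among the hypoxia response members, Ankrd37, Bnip3 and Adm had the largest endothelial differences, none of them called. Ankrd37, an ankyrin repeat gene and HIF target, had means of 5.94 ± 0.49 and 6.85 ± 0.37 (SD, n = 3 each), a difference of 0.91 (0.20 to 1.62, adjusted p = 0.575). Bnip3 read 8.33, 7.42 and 7.59 against 8.52, 8.57 and 8.73, apart, with a difference of 0.83 (0.05 to 1.61, adjusted p = 0.696). Its other probe set gave a difference of 1.83 (adjusted p = 0.489). Adm read 5.94, 5.33 and 4.64 against 6.23, 5.92 and 6.08, overlapping, with a difference of 0.78 (0.10 to 1.45, adjusted p = 0.627). P4ha2 read 6.63, 6.14 and 6.34 against 6.23, 6.16 and 7.39, with only array 3 raised, and differed by 0.23 (-0.68 to 1.14). Egln1 read 7.44, 7.76 and 7.71 against 8.04, 7.58 and 8.09 (difference 0.26, interval -0.12 to 0.65). Egln3 read 4.74, 4.83 and 4.31 against 5.40, 4.82 and 5.13 and was not tested. Hif1a read 9.81, 9.53 and 9.67 against 9.89, 9.78 and 9.79 (difference 0.15, interval -0.90 to 1.21). Epas1 read 10.89, 10.92 and 10.86 against 10.82, 10.85 and 10.84, a difference of -0.05 (-0.81 to 0.71).

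Whether the tumor difference itself differed between the cell types was tested as the endothelial minus the osteoblast difference. No member passed (0 of 33), where 0.209% of all genes did by limma, and 10 of 33 members had an unadjusted p below 0.05, beside 16.0% of all genes. The median over the members was -0.50, against -0.05 over all genes, and 27 of the 33 were below 0. Hk2 came closest, with -2.54 ± 0.55 (SE, interval -3.74 to -1.34, adjusted p = 0.0811), and with Hk2 dim in endothelial cells. P4ha2 followed in size with -1.92 (interval -3.21 to -0.64, adjusted p = 0.175). Slc2a1, Pfkfb3 and Tpi1 had differences of -1.28 (-2.53 to -0.03), -1.24 (-3.00 to 0.51) and -1.21 (-1.93 to -0.49). A larger response in osteoblasts than in endothelial cells was therefore not shown for any of the 7 members called in osteoblasts. Hk2 passed with array quality weights (adjusted p = 0.0229) and without tumor-free osteoblast replicate 1 (0.0105), and so did P4ha2 (0.0349 and 0.0334). Hif1a passed without tumor-free osteoblast replicate 1 (0.0452) and Tpi1 without replicate 2 (0.0237).

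Endothelial cells and osteoblasts of tumor-free mice differed in 11 members. Called higher in endothelial cells were 8 of 33 (24.2%), where 18.2% of all genes were: Bnip3l, Egln1, Epas1, Ndrg1, Pdk1, Pfkl, Pkm and Slc16a1. Called lower were 3 of 33 (9.09%), Hk2, Ldhb and Pdk4, where 12.7% of all genes were. Quantile normalization gave 5 higher and 4 lower. Median centring moved the median of all genes in this comparison by 0.15, and gave 10 members higher and 3 lower and 2852 genes higher and 785 lower, against 2266 and 1584 in the table as deposited. In tumor-bearing mice 2 of 33 members were called higher in endothelial cells, Epas1 and Ndrg1 (8.13% of all genes), and 6 lower, Hk2, P4ha1, P4ha2, Pdk3, Pgam1 and Tpi1 (6.79% of all genes). These comparisons use the same arrays as the tumor comparisons above. The chondrocyte markers averaged 6.70 to 10.61 on the osteoblast arrays and 5.46 to 6.70 on the endothelial ones. With their mean as a covariate, chosen after seeing the data, 5 of the 11 calls in tumor-free mice were kept (Epas1, Ndrg1, Pdk1, Pdk4 and Pkm) and 6 were lost (Bnip3l, Egln1, Hk2, Ldhb, Pfkl and Slc16a1). Hif1a and Slc2a3 passed in their place, which makes 7 members called. In tumor-bearing mice none of the 8 members above kept its call with that covariate, and Hif1a alone passed (2.78, adjusted p = 0.0306). Over all genes, the calls went from 3850 to 2151 in tumor-free and from 1854 to 498 in tumor-bearing mice. The list mean itself differs between the cell types, so this fit cannot separate it from the cell type comparison.

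**Figure D5:**
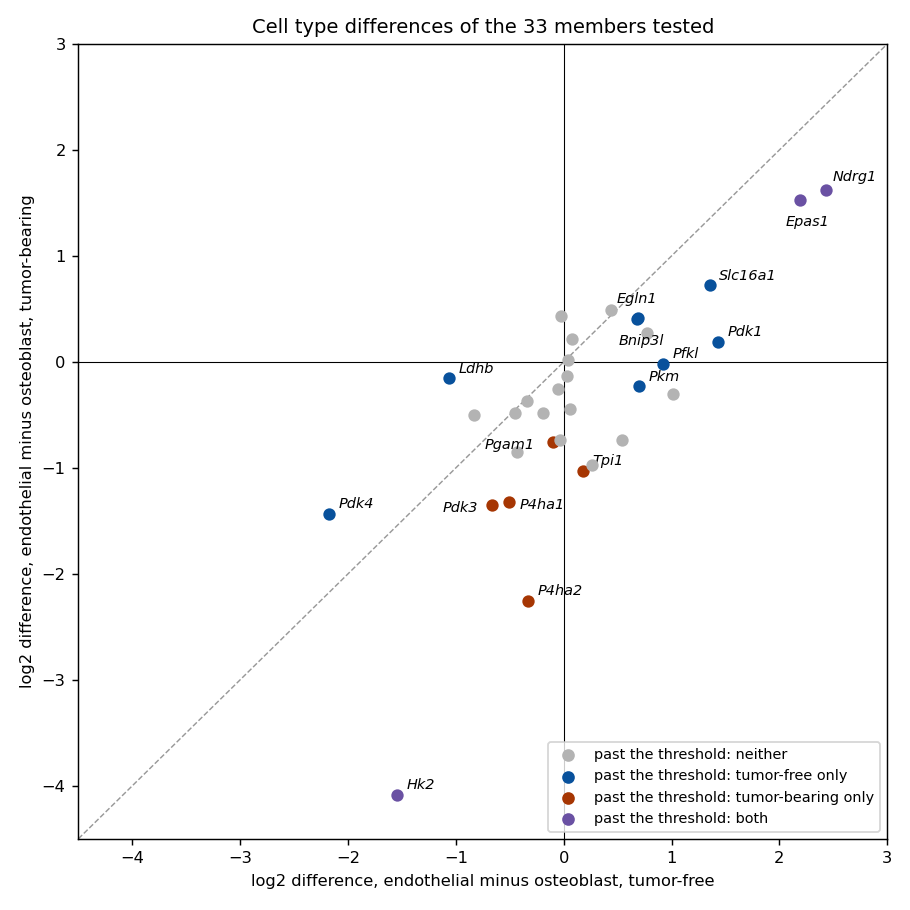
Endothelial minus osteoblast difference (log2) in tumor-free mice on the horizontal and in tumor-bearing mice on the vertical axis, 1 point per member tested; colours mark where the adjusted p was below 0.05, and the dashed line is equality. Ndrg1 and Epas1 lie far to the upper right and Hk2 lies lowest, at -1.54 and -4.08.

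The 3 members called in both comparisons were Epas1, Ndrg1 and Hk2. Epas1, known as the HIF subunit of endothelium, stood at 10.89 ± 0.03 in tumor-free endothelial cells and 8.70 ± 0.48 in tumor-free osteoblasts (SD, n = 3 each), 4.57-fold apart (adjusted p = 0.00121). With tumor the means were 10.84 ± 0.02 and 9.31 ± 0.80, a 2.88-fold difference (adjusted p = 0.0114). Ndrg1 had means of 9.16 ± 0.30 and 6.73 ± 0.40 without tumor, an excess of 5.39-fold in endothelial cells (adjusted p = 6.39e-05). In tumor-bearing mice it was 3.08-fold higher (9.08 ± 0.09 against 7.46 ± 0.38, adjusted p = 0.00108). Both genes passed in all 12 fits with an array left out, in both comparisons. Hk2 went the other way, at 4.69 ± 0.03 in tumor-free endothelial cells against 6.24 ± 0.69 in osteoblasts, 2.92-fold lower (adjusted p = 0.014), a call lost with the chondrocyte covariate and when replicate 1 of both tumor-free groups was left out. In tumor-bearing mice the means were 4.76 ± 0.57 and 8.85 ± 0.56, 16.9-fold apart (adjusted p = 3.79e-05). Hk2 was above the array median on 6 of the 12 arrays, the osteoblast ones, so it entered the test through the group where it is high, and the fold depends on its dim endothelial values.

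Pdk1 in tumor-free mice averaged 6.76 ± 0.34 for endothelial cells against 5.33 ± 0.28 for osteoblasts (2.70-fold, adjusted p = 0.00333), and passed with the chondrocyte covariate too. The calls of Slc16a1, Pfkl, Egln1 and Bnip3l that follow, and that of Ldhb, were lost with it. With tumor the difference of Pdk1 was 0.19 (-0.40 to 0.78). Slc16a1, the lactate carrier, was 2.56-fold higher in tumor-free endothelial cells (6.56 ± 0.42 against 5.20 ± 0.39, adjusted p = 0.00832). Pfkl was 1.90-fold higher there (6.50 ± 0.11 against 5.58 ± 0.33, adjusted p = 0.0101). Egln1 was 1.61-fold higher (7.64 ± 0.17 against 6.95 ± 0.16, adjusted p = 0.0147) and did not pass without tumor-free endothelial replicate 2 (0.0569) or 3 (0.0524). Bnip3l, a mitophagy receptor related to Bnip3, was 1.60-fold higher (9.58 ± 0.06 against 8.90 ± 0.38, adjusted p = 0.0228). That call was lost without tumor-free osteoblast replicate 1 (0.0518), tumor-free endothelial replicates 2 (0.0661) or 3 (0.0673), or with its other probe set (0.111). Quantile normalization removed the calls of both Egln1 and Bnip3l. Fitting only the groups compared, or leaving out replicate 1 of both tumor-free groups, also removed that of Bnip3l. Pkm was 1.63-fold higher (8.66 ± 0.14 against 7.96 ± 0.51, adjusted p = 0.0388), a call lost in 7 of 12 fits with an array left out (adjusted p up to 0.115, without tumor-free endothelial replicate 3) and with its other probe set (0.549). The Pkm call was also lost with the blood cell covariate, the immediate early covariate, quantile normalization and the replicate block. Averaging the probe sets or fitting only the groups compared removed it too.

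On the osteoblast side of tumor-free mice stood Ldhb and Pdk4. Ldhb was 2.08-fold lower in endothelial cells (6.34 ± 0.32 against 7.40 ± 0.14, SD, n = 3 each, adjusted p = 0.00971), and 1.72-fold lower with its other probe set (adjusted p = 0.0523). Pdk4 was 4.52-fold lower (5.69 ± 1.23 against 7.87 ± 0.69, adjusted p = 0.0212). Its call was lost without tumor-free osteoblast replicates 2 (0.0554) or 3 (0.0522), or endothelial replicates 2 (0.0647) or 3 (0.077), and without endothelial replicate 1 the difference was -2.83 (7.09-fold). The blood cell covariate removed the Pdk4 call, and so did fitting only the groups compared.

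In tumor-bearing mice the members lower in endothelial cells than in osteoblasts included 3 that were called in the osteoblast tumor comparison. P4ha2 was 4.77-fold lower (6.60 ± 0.69 against 8.85 ± 0.47, SD, n = 3 each, adjusted p = 0.00339). P4ha1 was 2.49-fold lower (7.91 ± 0.30 against 9.22 ± 0.17, adjusted p = 0.016), and not past the threshold without tumor-bearing osteoblast replicates 2 (0.064) or 3 (0.0502) or endothelial replicate 1 (0.0701). Tpi1 was 2.04-fold lower (8.40 ± 0.23 against 9.43 ± 0.02, adjusted p = 0.0111). Pgam1 was 1.68-fold lower (6.27 ± 0.11 against 7.02 ± 0.10, adjusted p = 0.00209). Pdk3 was 2.55-fold lower (5.50 ± 0.24 against 6.85 ± 0.10, adjusted p = 0.00486). Hk2 is given above as the third.

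Between the cell types, 24 of the 33 members had a difference of the same sign without and with tumor, and these 2 comparisons share no arrays. Of the 16 members called in either, 3 were called in both. These counts were not made over all genes, so they do not show whether the members differ from other genes. Whether a cell type difference itself changed with tumor is the same test as that of the tumor effects above, in which 0 members passed.

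Among the other hypoxia response genes, 6 of 30 were higher and 8 lower in endothelial cells of tumor-free mice, with a median of -0.45 against 0.03 over all genes, of which 18.2% were called higher and 12.7% lower. In tumor-bearing mice 1 was higher and 9 lower, with a median of -0.70 against 0.00025 over all genes, of which 8.13% were called higher and 6.79% lower. Lox and Plod2, which cross-link and hydroxylate collagen, were lower in endothelial cells in tumor-free (12.3-fold and 8.82-fold, adjusted p = 4.37e-05 and 7.50e-05) and in tumor-bearing mice (7.47-fold and 14.1-fold). Kdm4c and Kdm3a, histone demethylases of the hypoxia response, were 2.97-fold and 4.20-fold higher in endothelial cells of tumor-free mice (adjusted p = 0.000834 and 0.00115). In tumor-free mice Lox, Plod2, Kdm4c and Kdm3a passed in all 12 fits with an array left out, while Rora passed in 6 and Stc2 in 2. In tumor-bearing mice Higd1a passed in 4 such fits, and the Plod2 call was lost with the chondrocyte covariate. Of 12 HIF regulators, 3 were higher (Crebbp, Ep300 and Siah1a) and 1 lower (Cited4) in tumor-free mice, and 0 were called in tumor-bearing mice. Crebbp and Ep300 passed in all 12 fits with an array left out, Siah1a in 11 and Cited4 in 7 (adjusted p up to 0.0531 and 0.0907). The chondrocyte covariate removed the calls of Crebbp, Siah1a and Cited4, and the blood cell covariate those of Ep300, Siah1a and Cited4.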

How the data were processed

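Total RNA of the sorted cells was extracted, amplified as SPIA cDNA and labelled with biotin, per the labels' protocols. The authors deposited log2 expression per probe set for 12 arrays (34760 probe sets, 1.55 to 12.9), made with affy, per the submitters' processing notes. Its version, the background correction, the normalization and the genome build were not given in the sources used here. The amplification may change the measured ratios. From these values, 21640 probe sets with 1 gene symbol were kept (1321 had several and 11799 none listed), and 21553 symbols were updated by Entrez number. All differences come from limma 3.58.1 in R 4.3.3, with 1 mean for each of the 4 groups over all 12 arrays, default eBayes (8 residual and 2.89 prior degrees of freedom), two-sided, with Benjamini-Hochberg adjustment over 12430 genes and a threshold of 0.05. Intervals are 95%. The fit was run on simulated data with a common mean for all groups, independent noise and set shifts in tumor-bearing osteoblasts only. Those data held no cell type difference, shared mice or outlying array, so the fit was not tested for these. Replicate numbers were not used to pair the arrays in the main fit. Over all genes tested, deviations of equally numbered arrays correlated at -0.26 to 0.09, which cannot show that the arrays are unpaired. The 7 members called in osteoblasts averaged 7.59, 7.10 and 6.50 on tumor-free osteoblast arrays 1, 2 and 3. On the tumor-free endothelial arrays they averaged 7.29, 6.99 and 6.89, in the same order. The 42 members and all other lists were chosen with earlier results of these data known. Values on each array are given for members called in a tumor comparison and for 18 chosen members, and mean and SD for those called between cell types. Of the other lists only some genes are named, mostly called ones. Alternatives were scaling, the filter on dim genes, the probe set, the variance model, the replicate block, covariates, fitting only the groups compared, and leaving out each array. Promoter sequences are from RefSeq (GRCm38.p6).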

Additional observations from a re-analysis of the deposited data

How the results depend on the processing

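The 26 member differences called kept their direction under all 676 values from other settings (the alternatives and each of 12 arrays left out), and 580 of these also stayed past the threshold. Many of the 676 equal the main difference by construction, because the setting changes only its error or leaves out an array outside the comparison. The 26 were also picked because they were called, so a kept direction says little here. The osteoblast count of 7 members became 0 with only the groups compared, 0 with the immediate early covariate, 1 with the chondrocyte covariate and 12 with replicate 1 of both tumor-free groups left out, and ranged from 2 to 12 with 1 array left out. Over all genes that count of 570 ranged from 0 to 1421 under the other settings and from 111 to 1573 with 1 array left out. In endothelial cells the count of 0 became 3 with array quality weights and stayed 0 to 0 with 1 array left out. The count of 0 for the difference between the tumor effects became 2 with array quality weights, 1 with the blood cell covariate and 1 with replicate 1 of both tumor-free groups left out, and ranged from 0 to 3 with 1 array left out. Between cell types the count of 11 in tumor-free mice became 7 with the chondrocyte covariate, 5 of them among the 11 (7 to 13 with 1 array left out), and the count of 8 in tumor-bearing mice became 18 with array quality weights, 14 with only the groups compared and 1 with the chondrocyte covariate (7 to 10). With the replicate block the 5 counts were 6, 0, 0, 11 and 8, and 349 genes in all were called in osteoblasts. The chondrocyte covariate and the removal of tumor-free replicate 1 were chosen after seeing the data. Why these settings moved the counts was not tested. With 3 arrays a group and tumor-free osteoblasts the most variable, small differences could not be resolved.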
